A study of Mus musculus with 30 samples.

Results

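The genes described here encode the light chains of sarcomeric myosin in mouse quadriceps. The 6 members were the table rows named Mylpf, Myl2, Myl1, Myl3, Myl4 and Myl6b, out of 17420 genes listed, and all 6 passed the filter on low values. RNA was read in 15 quadriceps libraries, each from a separate male mouse aged 4 months, with 3 mice in each of 5 groups. The groups were untreated Gaa KO mice on a B6;129 background, untreated Gaa WT mice on B6;129, treated Gaa KO mice on a mixed B6;129;DBA2/J background, untreated Gaa KO mice on the mixed background, and untreated Gaa WT mice on the mixed background. All mixed mice, WT included, are labelled Ltbp4D36/D36. Treated mice received, by vein on postnatal day 1 to 2, AAV9-sp7-8-hGAAco, a vector for human GAA under a promoter active in liver and muscle (LiMP). The other groups are labelled untreated, and no B6;129 mice were treated among the samples used here. The labels do not describe the Gaa KO allele. The column names carry the letter A for the B6;129 libraries and B for the mixed ones, and this letter cannot be told apart from the background.

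Each myosin head is carried on a heavy chain neck that binds an essential light chain and a regulatory light chain. In adult fast fibres these are the products of Myl1 (essential, made as a long and a short form from separate start sites) and Mylpf (regulatory). Slow fibres and the heart ventricle use Myl3 (essential) and Myl2 (regulatory). Myl4 encodes the essential chain of embryonic muscle and of the atrium, and Myl6b encodes another essential chain, known from slow muscle and non-muscle cells. Phosphorylation of the regulatory chain by a calmodulin-dependent kinase, Mylk2 in skeletal muscle, tunes the force of contraction. Gaa encodes lysosomal acid alpha-glucosidase, which breaks down glycogen, and its loss causes Pompe disease.

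Levels are the signal deposited by the authors, a linear value in which 0.5 is added to the reads and the sum is scaled for the size of the library. Recovered reads came to 16854081 to 37136087 per library (median 26668522), and 1 read was worth a signal of 0.0329 to 0.0720. The members rested on 54 reads (Myl4 in a WT library) to 328038 reads (Mylpf in a KO library). The mouse Gaa row was lower in every KO library than in every WT library. It stood at 16.3, 15.4 and 15.7 in KO B6;129 quadriceps, against 308, 258 and 259 in WT B6;129 quadriceps. On the mixed background it was 17.1, 18.9 and 17.9 in treated KO quadriceps, 11.6, 16.5 and 16.7 in KO quadriceps, and 214, 169 and 254 in WT quadriceps. This row is the mouse gene, and the level of the human transgene was not analysed here. Acta1, the actin of skeletal muscle, had a median signal of 35579 over the 15 quadriceps libraries. The summed signal per library was 1221510 to 1279400 in KO B6;129 and 1476360 to 1543070 in WT B6;129. It was 1497590 to 1592670 in treated KO mixed, 1164560 to 1308180 in KO mixed and 1490050 to 1602140 in WT mixed. The untreated KO libraries had lower totals than all others. With reads scaled to the library totals instead, the median log2 difference over all tested genes became 0.24 for KO against WT B6;129, 0.237 for KO against WT mixed and -0.235 for treated KO against KO mixed. As deposited it was -0.02, -0.04 and 0.05. Differences of this size depend on that choice, which touches Myl1 and Mylpf below.

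The genes lie on 6 chromosomes of GRCm38 in the GENCODE vM21 annotation. Mylpf is at chr7:127208890-127214298 (plus strand), Myl2 at chr5:122100951-122113472 (plus strand) and Myl1 at chr1:66924295-66945404 (minus strand). Myl3 is at chr9:110741861-110769798 (plus strand), Myl4 at chr11:104550663-104595753 (plus strand) and Myl6b at chr10:128494157-128498685 (minus strand). Myl4 is on the chromosome of Gaa, 14.7 megabases away, and the treated KO mice carry the same Gaa genotype as the KO mice of their background. Of the 61-base words of the annotated Myl1 transcripts, 13.9% also occur in the pseudogene Mylf-ps, so Myl1 reads could be split in counting. Mylf-ps has 0 rows among the genes listed, so reads counted there cannot be seen. For the other 5 members 0% of the words occurred in another gene.

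The 250 bases before the start are shown for Mylpf, whose level varied least, Myl4, whose level varied most, and Myl6b. They are the RefSeq windows of GRCm38.p6, printed 5′ to 3′ on the strand of the gene, and capitals mark E-boxes (CANNTG, the same pattern on both strands), the motif that myogenic factors bind. The coordinates are chr7:127211358-127211607 (plus strand) for Mylpf, chr11:104550413-104550662 (plus strand) for Myl4 and chr10:128498686-128498935 (minus strand) for Myl6b.
Mylpf: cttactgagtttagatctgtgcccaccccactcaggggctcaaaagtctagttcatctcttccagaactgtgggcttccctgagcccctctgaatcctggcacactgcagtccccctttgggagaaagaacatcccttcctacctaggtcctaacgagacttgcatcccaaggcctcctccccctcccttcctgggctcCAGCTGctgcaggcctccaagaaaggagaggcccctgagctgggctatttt
Myl4: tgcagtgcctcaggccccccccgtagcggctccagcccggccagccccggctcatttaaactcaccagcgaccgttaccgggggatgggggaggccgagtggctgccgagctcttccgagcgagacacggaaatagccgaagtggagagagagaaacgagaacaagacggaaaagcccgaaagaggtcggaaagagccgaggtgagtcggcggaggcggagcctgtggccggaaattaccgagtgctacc
Myl6b: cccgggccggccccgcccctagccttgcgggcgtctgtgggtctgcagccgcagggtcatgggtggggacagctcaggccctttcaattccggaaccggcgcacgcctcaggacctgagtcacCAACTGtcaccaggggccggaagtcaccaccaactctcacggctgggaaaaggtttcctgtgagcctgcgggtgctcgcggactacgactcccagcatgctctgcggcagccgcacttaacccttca
Mylpf and Myl6b each held 1 E-box, which began at -51 and -127 from the start. The Myl4 window held 0, and 66.2% of all 32851 RefSeq windows of this length hold at least 1. The Myl4 window precedes the most upstream of 5 annotated coding starts, and others lie at positions 104575446 to 104584964, so which start gave the reads is not known from gene totals. The same holds for Mylpf, whose window precedes the start at position 127211608. Its 4 annotated coding starts lie at positions 127208890 to 127212679. The windows of Myl1 and Myl3 hold 103 and 32 annotated exon bases and are not shown. The 2 RefSeq windows of Myl2 lie upstream of all 9 of its annotated coding starts and are not shown either.

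Per kilobase of annotated exon, the WT B6;129 quadriceps ranked the signal of the 6 genes as Mylpf, Myl1, Myl3, Myl2, Myl6b and Myl4. The means per kilobase were 9314 ± 1289 for Mylpf and 6763 ± 789 for Myl1 (SD, n = 3). The slow pair stood far below, at 133.8 ± 46.3 for Myl3 and 45.4 ± 14.9 for Myl2. Myl6b had 6.26 ± 1.25 and Myl4 had 2.88 ± 0.51 per kilobase. No neighbours in this order overlapped between their 3 libraries, but Myl6b and Myl4 did overlap when the longest transcript replaced the merged exons. WT mixed quadriceps gave the same order. In KO B6;129 quadriceps Myl4 moved above Myl6b, at 39.7 ± 13.4 against 9.99 ± 1.099 per kilobase, and its libraries overlapped those of Myl2, at 51.5 ± 10.4. Over the 15 libraries the signal of Mylpf varied 1.38-fold from lowest to highest and that of Myl1 1.79-fold. The same spread was 2.22-fold for Myl6b, 3.32-fold for Myl3, 14.2-fold for Myl2 and 23.7-fold for Myl4.

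**Figure D1:**
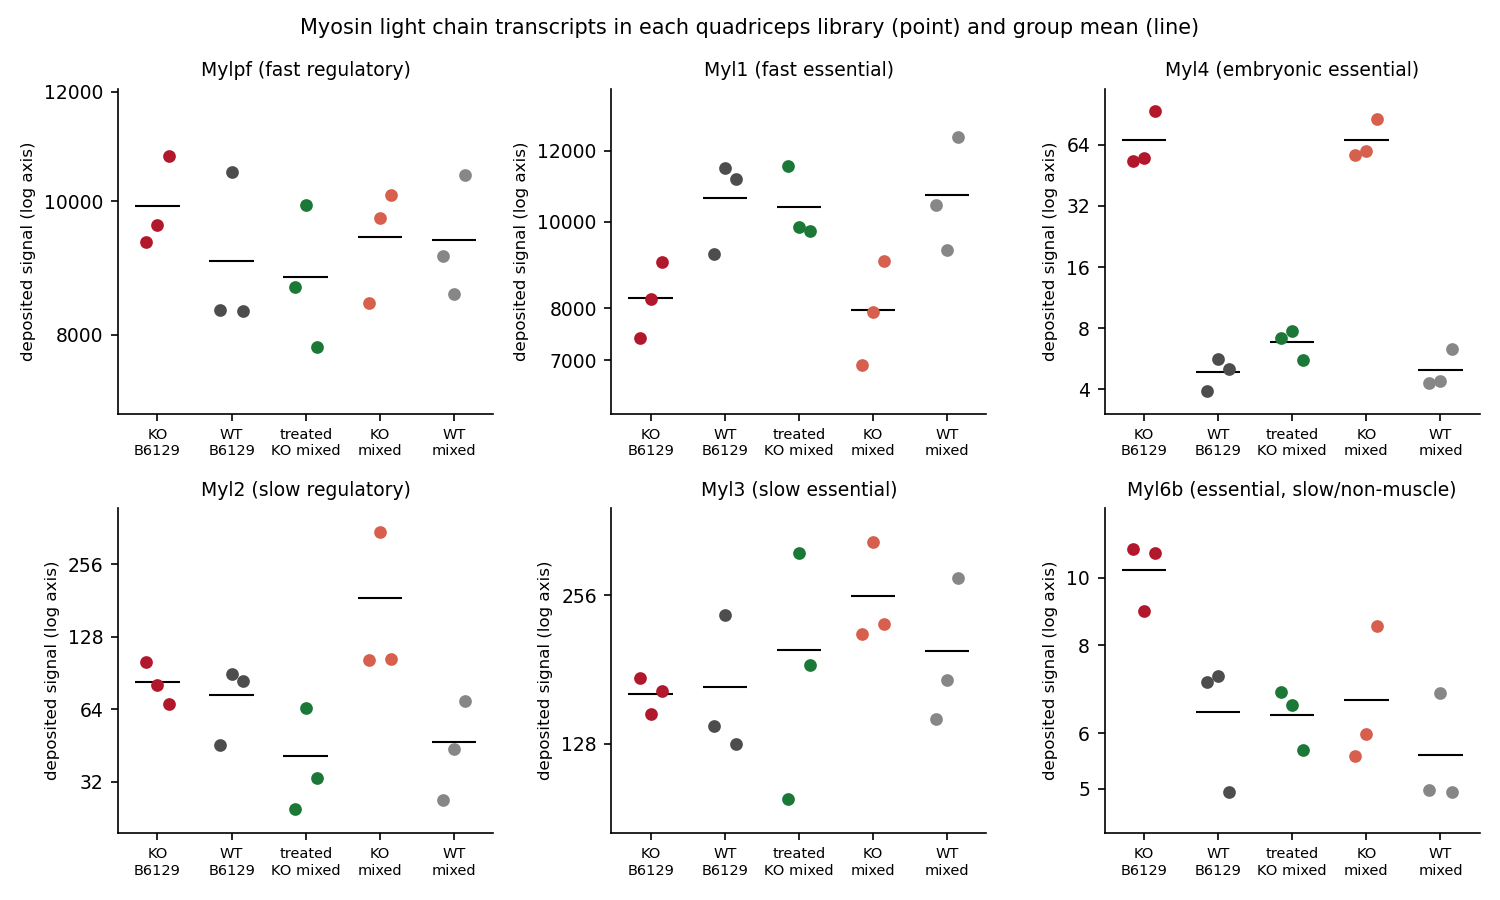
Deposited signal (log axis, its own scale in each panel) of the 6 light chain genes in each of 15 quadriceps libraries, by group, with the group mean as a line. Myl4 lies between 52.9 and 93.2 in the 6 KO libraries without treatment and between 3.93 and 7.76 in the other 9.

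Differences were tested with limma on log2(signal + 0.5) in 1 model of the 5 groups, adjusted over 14113 tested genes by the Benjamini-Hochberg method, and a gene is called at an adjusted p under 0.05. In KO against WT B6;129 quadriceps 2 of the 6 members were called, Myl4 and Myl6b, both higher, where 35.8% of all tested genes were called (16.7% higher and 19% lower). In KO against WT mixed quadriceps 3 were called, Myl4 and Myl2 higher and Myl1 lower, against a background of 39.4% (17.1% higher and 22.3% lower). In treated KO against KO mixed quadriceps 3 were called, Myl1 higher and Myl4 and Myl2 lower, against 40.6% of all genes (23.6% higher and 17.1% lower). Shares of 2 or 3 in 6 are near these backgrounds, so the sizes of single genes carry what follows rather than the counts. The median log2 difference over the 6 members was 0.18, 0.31 and -0.29 in these comparisons, beside -0.02, -0.04 and 0.05 over all tested genes. The last 2 comparisons share the KO mixed libraries.

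In treated KO against WT mixed quadriceps 0 members were called by limma or by edgeR, and 0 had an unadjusted p under 0.05 in either test, where 2.98% of all genes were called. When the KO effects on the 2 backgrounds were set against each other, 0 were called by either tool, against a background of 0.283%. There 1 member, Myl2, had an unadjusted p under 0.05 in both tests. WT mixed against WT B6;129 quadriceps gave 0 calls and 0 unadjusted p under 0.05 in both tests, where 2.57% of all genes were called. The p-values rest on the spread between the 3 animals of each group, pooled over the 5 groups and moderated over all tested genes. A library outside the 2 groups compared can thus change a call. The labels number the animals as separate sample pairs.

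**Figure D2:**
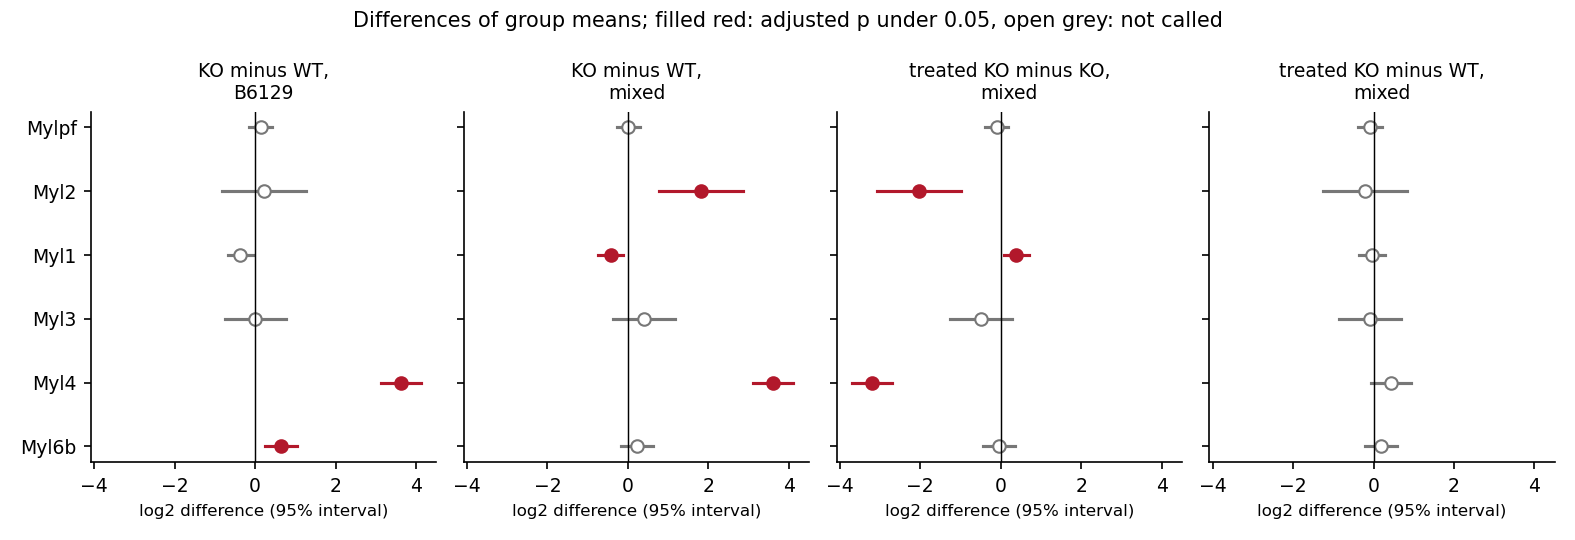
Log2 difference of group means (points, x axis) with its 95% interval for each light chain gene (y axis) in 4 comparisons. Filled red points are called at an adjusted p under 0.05, and the Myl4 points lie at 3.62, 3.61 and -3.19 in the first 3 panels.

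Myl4, the embryonic and atrial essential chain, had the largest difference of the 6 genes. Its signal was 52.9, 55.0 and 93.2 in KO B6;129 quadriceps, against 3.93, 5.62 and 5.04 in WT B6;129 quadriceps. The lowest KO library exceeded the highest WT library several-fold and the groups did not overlap. The log2 difference was 3.62 ± 0.23 (SE), a 12.3-fold difference, with limma's adjusted p = 2.11e-07. On the mixed background Myl4 was at 57.1, 59.2 and 85.3 in KO quadriceps, against 4.32, 4.38 and 6.33 in WT quadriceps. This is a log2 difference of 3.61 ± 0.23 (adjusted p = 3.19e-07, limma). The KO effect on Myl4 differed between backgrounds by -0.005 ± 0.327, with a 95% interval of -0.71 to 0.70.

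In treated KO quadriceps Myl4 stood at 7.17, 7.76 and 5.61, below every KO mixed library and overlapping the WT mixed libraries. It fell by 3.19 ± 0.23 on the log2 scale against KO mixed quadriceps (adjusted p = 5.99e-07, limma). Against WT mixed quadriceps the treated libraries differed by 0.42 ± 0.23, which was not called (adjusted p = 0.303), and the interval of -0.07 to 0.92 does not show that the groups are alike. Leaving out each library in turn kept the 3 calls, with differences of 3.36 to 3.76 for KO against WT B6;129, 3.43 to 3.78 for KO against WT mixed and -3.30 to -3.01 for treated KO against KO mixed. Of the essential chain signal per kilobase, Myl4 made up 0.724% ± 0.178 in KO B6;129, against 0.0415% ± 0.0027 in WT B6;129 (SD, n = 3). The shares were 0.0598% ± 0.0094 in treated KO, 0.743% ± 0.094 in KO and 0.0422% ± 0.0041 in WT quadriceps of the mixed background. The highest library, KO B6;129 replicate 3, had 0.928% by merged exons and 1.146% by the longest transcript, so the level of the share rests on the length chosen.

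Genes of embryonic and regenerating muscle rose with Myl4. Of 14 such genes, 13 were called higher and 0 lower in KO against WT B6;129, and 11 higher and 0 lower in KO against WT mixed. In treated KO against KO mixed quadriceps 9 were called lower and 0 higher. Over all tested genes, 16.7% and 17.1% were called higher in the first 2 of these comparisons and 17.1% lower in the third. The median log2 differences over the list were 2.24, 2.00 and -1.985. Mymk, which drives myoblast fusion, had log2 differences of 4.00 ± 0.26, 3.75 ± 0.26 and -3.31 ± 0.26 in these comparisons, with adjusted p = 2.86e-07, 5.09e-07 and 1.13e-06 by limma. With edgeR these were 5.46, 6.95 and -4.70, so the size for this low transcript depends on the method. Myh3, the embryonic heavy chain, was at 59.5, 41.0 and 74.6 in KO B6;129, against 2.56, 4.98 and 3.93 in WT B6;129 quadriceps. Its treated libraries, at 3.597, 6.26 and 3.47, stood beside 32.6, 39.8 and 39.5 in KO mixed and 3.67, 4.43 and 4.74 in WT mixed quadriceps. As for Myl4, all KO libraries without treatment lay above all other libraries. Of the 14 genes, 1 was called higher and 0 lower in treated KO against WT mixed quadriceps.

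Markers of other cell types were counted in the same comparisons. Over all tested genes, 16.7% and 17.1% were called higher in KO against WT on B6;129 and mixed. In treated KO against KO 17.1% were called lower. All 8 macrophage genes were called higher in KO against WT on both backgrounds, and 7 of 8 lower in treated KO against KO. Their summed signal was 333.6 to 442.1 in KO B6;129 and 67.3 to 87.9 in WT B6;129, then 81.3 to 196.7 in treated KO mixed, 278.5 to 549.3 in KO mixed and 111.5 to 168.9 in WT mixed. Of 5 measured satellite cell genes, 4 were higher in KO against WT B6;129 and 2 in KO against WT mixed, and 3 were lower in treated KO against KO, or 1 without KO mixed replicate 7. Their summed signal was 73.7 to 102.3 in KO B6;129 and 46.9 to 49.7 in WT B6;129, then 50.4 to 70.6 in treated KO, 79.1 to 94.5 in KO and 65.8 to 104.3 in WT mixed. Of 6 fibroblast genes, 4 and 3 were higher in KO against WT on B6;129 and mixed, and 1 was lower in treated KO against KO. Without KO mixed replicate 7 the mixed count was 1, and scaling to library totals gave 5, 5 and 3. Their summed signal was 990.3 to 1130.0 in KO B6;129 and 445.7 to 669.6 in WT B6;129, then 659.3 to 1000.2 in treated KO, 743.6 to 1426 in KO and 629 to 760.5 in WT mixed. Of 6 Schwann cell genes, 0 were called in KO against WT B6;129 and 0 in treated KO against KO, and 2 were higher in KO against WT mixed. Without KO B6;129 replicate 1 the first count was 2 higher. Without KO mixed replicate 7, 1 was higher in KO against WT mixed and 1 in treated KO against KO. Scaling to library totals gave 1 lower in treated KO against KO. Of 9 cardiac genes listed, 6 had a row and 3 passed the filter. Hcn4, a pacemaker channel, was at 2.51, 3.68 and 2.38 in KO B6;129, against 0.612, 1.01 and 1.37 in WT B6;129, and was the only one called (1.18 ± 0.23, adjusted p = 0.00129, limma), with 0 called in the mixed comparisons. With scaling to library totals, 2 were higher in KO against WT mixed and 1 was lower in treated KO against KO, and without KO B6;129 replicate 1 a second gene was called in the first comparison, lower. Myh6, the atrial heavy chain, was at 46.1, 2.37 and 4.00 in KO B6;129, against 19.4, 19.1 and 41.5 in WT B6;129, and was not called. The 3 that failed the filter were Tnni3, at or below 0.749, Ryr2, at or below 0.682, and Mybpc3, at or below 0.1498 in all 15 libraries. The summed signal of the 6 was 7.27 to 50.1 in KO B6;129 and 21.03 to 43.8 in WT B6;129, then 9.63 to 22.1 in treated KO, 8.21 to 37.4 in KO and 8.12 to 25.5 in WT mixed. The part of these cell types in the Myl4 difference was not tested. In bulk tissue, fewer cells of a type and less RNA per cell cannot be told apart.

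Over the 15 libraries the genes most like Myl4 by Pearson correlation of log2 values were Mt3 (r = 0.989), Chrnd (r = 0.988), a subunit of the acetylcholine receptor of muscle, and Rnh1 (r = 0.986), a ribonuclease inhibitor. Libraries of the same group share genotype and treatment, and after the group means were removed these values were 0.49, 0.48 and 0.54.

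Of the fast pair, Myl1 was lower in untreated KO libraries as deposited, and Mylpf was not called. Myl1, the fast essential chain, was at 7419.5, 8201 and 9024 in KO B6;129 quadriceps, against 9195, 11485 and 11152 in WT B6;129 quadriceps. The groups did not overlap, yet the log2 difference of -0.37 ± 0.15 was not called (adjusted p = 0.0644, limma). On the mixed background Myl1 was at 11535, 9860.1 and 9762 in treated KO, 6916, 7921 and 9044 in KO, and 10429, 9297 and 12411 in WT quadriceps. All KO libraries were below all treated and all WT libraries. Myl1 fell by 0.43 ± 0.15 in KO against WT mixed (adjusted p = 0.0326) and rose by 0.39 ± 0.15 in treated KO against KO (adjusted p = 0.0472).

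These Myl1 calls lay close to the threshold. With edgeR on the recovered reads the adjusted p was 0.0266 for KO against WT mixed and 0.0574 for treated KO against KO mixed. With limma on the libraries of the compared groups only, the adjusted p was 0.107 and 0.0834. Over the libraries left out in turn it ranged over 0.0201 to 0.129 in the first and 0.0274 to 0.173 in the second. The first call was lost without KO replicate 6, KO replicate 7, WT replicate 1 or WT replicate 4 (adjusted p = 0.129, 0.0669, 0.0652 and 0.122), and the second kept its call with 1 of the 6 libraries left out. The KO against WT B6;129 difference was called only when WT replicate 4 was left out (adjusted p = 0.0376). Scaling to library totals gave -0.13 (adjusted p = 0.438) and 0.08 (adjusted p = 0.646), and quantile normalization gave -0.10 (adjusted p = 0.562) and -0.06 (adjusted p = 0.729), which turns the direction of the second. In KO against WT B6;129 quantile normalization gave 0.0071, which also turns the direction. Quantile normalization sets each value from its rank in the library. By group mean Myl1 ranked 22 to 24 of 17420 genes in every group, so that setting cannot decide whether its level changed.

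Mylpf, the fast regulatory chain, was at 9338, 9613 and 10788 in KO B6;129 quadriceps, against 8332, 10499.9 and 8327 in WT B6;129 quadriceps. Its values were 8666, 9933 and 7838 in treated KO, 8431, 9729 and 10106 in KO and 9126, 8563 and 10436 in WT mixed quadriceps. The groups overlapped throughout and no comparison was called, with log2 differences of 0.14 ± 0.13, 0.01 ± 0.13 and -0.10 ± 0.13 for KO against WT B6;129, KO against WT mixed and treated KO against KO. The calls depended on the scaling. Scaling to library totals gave 0.42 (adjusted p = 0.0095), 0.31 (adjusted p = 0.0464) and -0.41 (adjusted p = 0.0109) in the same order, by limma. Quantile normalization gave 0.68 (adjusted p = 0.00112), 0.34 (adjusted p = 0.0536) and -0.41 (adjusted p = 0.0207). These last values follow ranks, and by group mean Mylpf ranked 18 in KO and 26 in WT B6;129. On the mixed background it ranked 26 in treated KO, 20 in KO and 24 in WT. Ranks cannot decide whether its level changed.

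A factor applied to a whole library leaves the ratio of the fast pair in it the same, whereas quantile normalization does not. As deposited, Myl1 over Mylpf, per kilobase, was 0.492, 0.529 and 0.518 in KO B6;129 quadriceps, against 0.684, 0.678 and 0.830 in WT B6;129 quadriceps. It was 0.825, 0.615 and 0.772 in treated KO, 0.508, 0.504 and 0.554 in KO and 0.708, 0.673 and 0.737 in WT mixed quadriceps. The 6 KO libraries without treatment lay between 0.492 and 0.554, and all others at 0.615 or above. Since the ratio was chosen after the values of both genes were seen, no p is given. With the longest transcript as the length, the group means were 0.586 in KO B6;129 and 0.835 in WT B6;129, so the level of the ratio rests on the length. A change of length multiplies the ratio by the same factor in every library, so it could not change the order of the groups. The ratio shows unequal change of the pair, not which gene changed.

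**Figure D3:**
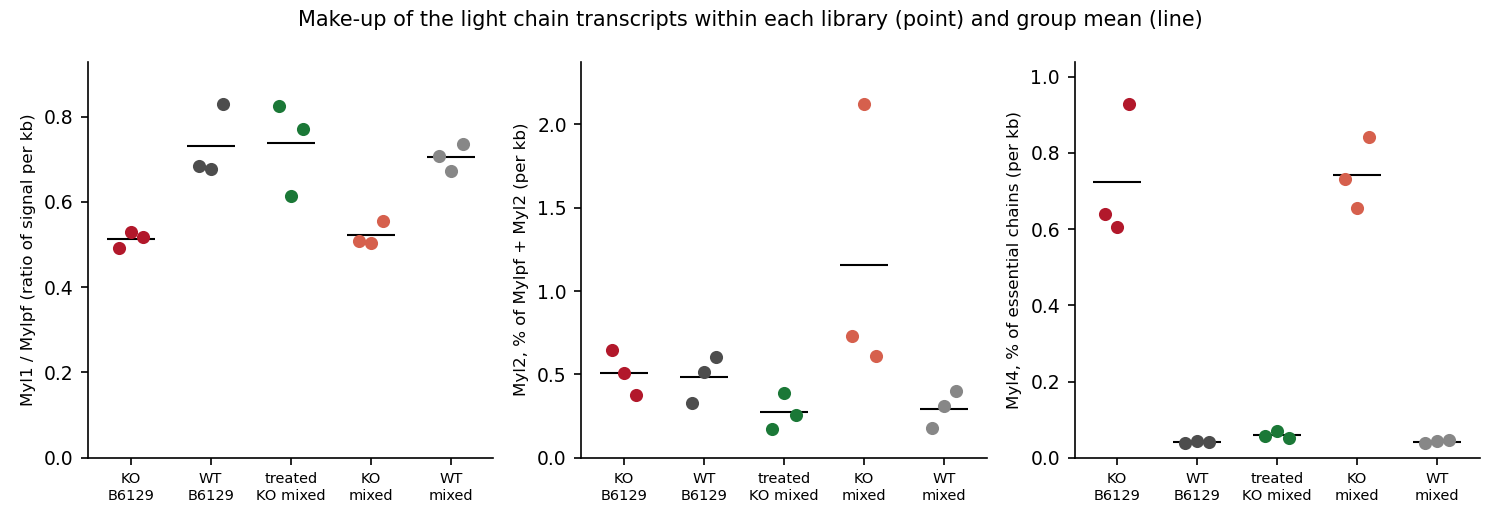
Ratio of Myl1 to Mylpf, Myl2 as a percent of the regulatory chains (Mylpf and Myl2) and Myl4 as a percent of the essential chains (Myl1, Myl3, Myl4 and Myl6b), all from signal per kilobase (y axes start at 0), in each library by group with the group mean as a line. In the left panel the KO libraries without treatment lie between 0.492 and 0.554 and all others at 0.615 or above.

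Genes of fast fibres other than the light chains were counted too. Of 14, 8 were called lower and 0 higher in KO against WT B6;129, 9 lower and 0 higher in KO against WT mixed, and 9 higher and 0 lower in treated KO against KO. Over all tested genes, 19% and 22.3% were called lower in the first 2 of these comparisons and 23.6% higher in the third. For the fast list, scaling to library totals left 3 lower, then 4 lower and 2 higher, then 6 higher and 1 lower. Quantile normalization left 1 higher and 1 lower, 1 higher and 2 lower, and 3 higher and 2 lower, and turned the sign of 4, 2 and 2 of the called genes. Myh4, the heavy chain of the fastest fibres, had 43936, 38721 and 37364 in KO B6;129, against 75150.3, 62759 and 60889 in WT B6;129 quadriceps. Its log2 difference was -0.73 ± 0.17 there, -1.02 ± 0.17 in KO against WT mixed and 1.31 ± 0.17 in treated KO against KO, with adjusted p = 0.00434, 0.000371 and 4.07e-05 by limma. Quantile normalization ended all 3 calls, at -0.12, -0.23 and 0.35 (adjusted p = 0.593, 0.254 and 0.0887). Values follow ranks in that setting, so for a gene this high it cannot decide whether the level changed. Of 8 general skeletal muscle genes (Ckm is in both lists), 3 were called lower and 1 higher in KO against WT B6;129. In KO against WT mixed 4 were lower and 1 higher, and in treated KO against KO 5 were higher and 2 lower. Scaling to library totals gave 3 lower and 1 higher, 2 lower and 2 higher, and 3 higher and 2 lower. As deposited the median log2 differences were -0.39, -0.43 and 0.55, beside -0.34, -0.38 and 0.49 for the fast list. The genes most like Myl1 over the 15 libraries were Smcr8 (r = 0.916), Laptm4b (r = 0.915) and Pgam2 (r = 0.913), the muscle form of phosphoglycerate mutase. Those most like Mylpf were Cops6 (r = 0.816), Gbp6 (r = 0.787) and Cox6a1 (r = 0.779).

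Genes that act on the regulatory chain were counted in the same way. Of 14 measured genes for light chain kinases, calmodulins and the myosin phosphatase, 7 were called lower and 1 higher in KO against WT B6;129, 7 lower and 0 higher in KO against WT mixed, and 10 higher and 1 lower in treated KO against KO. Scaling to library totals gave 6 lower and 3 higher, 4 lower and 2 higher, and 7 higher and 1 lower, with no called gene changing sign. Over all genes tested, 35.8%, 39.4% and 40.6% were called in these comparisons. By direction, 19% and 22.3% were called lower in the first 2 and 23.6% higher in the third. The list was chosen with earlier results of these data known, and its counts were not tested against these shares. Mylk2, the skeletal muscle light chain kinase, had 772, 856 and 842 in KO B6;129, against 2151, 1612 and 1172 in WT B6;129 quadriceps. It was at 1915, 2238 and 1915 in treated KO, 722, 649.5 and 907 in KO and 1578, 1307 and 1197 in WT mixed quadriceps. Its KO libraries lay below all others, with log2 differences of -0.96 ± 0.18, -0.85 ± 0.18 and 1.42 ± 0.18 (adjusted p = 0.00125, 0.00265 and 4.32e-05, limma). Calm3, one of the calmodulin genes, differed by -0.96 ± 0.11, -1.23 ± 0.11 and 1.38 ± 0.11 (adjusted p = 1.9e-05, 2.46e-06 and 8.79e-07). In treated KO against WT mixed 2 of the 14 were called, Mylk4 (1.22 ± 0.28, adjusted p = 0.0341) and Camk2g (0.41 ± 0.10, adjusted p = 0.048), both higher.

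Myl2, the slow and ventricular regulatory chain, was the only member besides Myl4 with a called difference above 1 on the log2 scale. On B6;129 it was at 100.3, 81.0 and 67.1 in KO quadriceps, against 45.6, 90.0 and 83.5 in WT quadriceps. The groups overlapped and the log2 difference of 0.22 ± 0.48 was not called (adjusted p = 0.76, limma), with an interval of -0.82 to 1.26. On the mixed background Myl2 was at 24.6, 64.6 and 33.2 in treated KO, 102.4, 349 and 103.1 in KO and 26.8, 43.8 and 69.4 in WT quadriceps. All KO mixed libraries lay above all treated and WT mixed libraries, and KO replicate 7 stood well above its group.

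Myl2 rose by 1.82 ± 0.48 in KO against WT mixed, a 3.53-fold difference (adjusted p = 0.0091, limma). It fell by 2.03 ± 0.48 in treated KO against KO (adjusted p = 0.00433). Leaving out a library in turn gave 1.23 to 2.16 for the first and -2.42 to -1.44 for the second, and all 12 of these kept the call. The smallest sizes, 1.23 and -1.44, came without KO mixed replicate 7. Treated KO against WT mixed differed by -0.21 ± 0.48 (adjusted p = 0.843). The KO effect on Myl2 was larger on the mixed background by 1.60 ± 0.68, with an unadjusted p = 0.0353 by limma and 0.022 by edgeR, but the adjusted p of 0.407 (limma) does not pass. Without KO mixed replicate 7 that difference was 1.01 (adjusted p = 0.603). The WT means were 46.7 ± 21.5 in WT mixed and 73.0 ± 24.02 in WT B6;129 quadriceps, and their difference was not called (adjusted p = 0.497). Of the regulatory chain signal per kilobase, Myl2 made up 0.509% ± 0.135 in KO B6;129 and 0.482% ± 0.140 in WT B6;129 (SD, n = 3). The share was 0.273% ± 0.111 in treated KO, 1.16% ± 0.84 in KO and 0.295% ± 0.112 in WT mixed quadriceps. KO mixed replicate 7 had 2.12%, and without it the KO mixed mean was 0.671%.

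Myl3, the slow essential chain, did not follow its partner to a call. It was at 174.1, 147.0 and 164.1 in KO B6;129 quadriceps, against 139.3, 232.8 and 127.6 in WT B6;129 quadriceps. Mixed quadriceps had 98.8, 311.5 and 184.7 in treated KO, 213.5, 328.4 and 223.2 in KO and 143.5, 172.4 and 277.2 in WT animals. The groups overlapped in each comparison, and the treated animals spanned nearly the whole range. The log2 differences were 0.01 ± 0.36, 0.40 ± 0.36 and -0.49 ± 0.36 for KO against WT B6;129, KO against WT mixed and treated KO against KO (adjusted p = 0.991, 0.404 and 0.302, limma). The interval of the second ran over -0.37 to 1.16. Whether Myl2 and Myl3 differ in their response was not tested.

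Of 12 slow fibre genes, 2 were called higher and 0 lower in KO against WT B6;129, 6 higher and 0 lower in KO against WT mixed, and 0 higher and 7 lower in treated KO against KO. Over all tested genes, 16.7% were called higher in the first comparison, 17.1% higher in the second and 17.1% lower in the third. Nothing particular to the slow list is read from its first count. Without KO mixed replicate 7 the count for KO against WT mixed was 4, and that for treated KO against KO 7. Without KO B6;129 replicate 1 the count for the first comparison was 1. Casq2, the calcium store protein of slow and cardiac muscle, was called in all 3, at 1.29 ± 0.17, 2.37 ± 0.17 and -1.44 ± 0.17 (adjusted p = 6.29e-05, 5.09e-07 and 1.72e-05, limma). Tnni1, slow troponin I, differed by 1.26 ± 0.44, 1.72 ± 0.44 and -2.52 ± 0.44 (adjusted p = 0.039, 0.00755 and 0.000505, limma), and the first was lost without that replicate 1 library (0.97, adjusted p = 0.146). In treated KO against WT mixed 1 of the 12 genes was called higher and 0 lower. Casq2 was at 30.5, 38.2 and 31.9 in treated KO quadriceps, all above the 15.2, 20.4 and 16.9 in WT mixed quadriceps. Myh7, the slow heavy chain, was not called and varied within groups. It was at 340.2, 8.39 and 6.96 in KO B6;129, against 72.0, 65.0 and 141.5 in WT B6;129 quadriceps, and at 71.6, 91.1 and 3.38 in KO mixed quadriceps. The share of slow fibres in the piece of muscle taken was not measured, and its part in these differences was not tested.

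Among the same 12 genes, Myl2 correlated most over the 15 libraries with Myoz2 (r = 0.893), a Z-disc protein of slow fibres, and Tnnt1 (r = 0.883), slow troponin T, which were also its closest 2 of all tested genes, followed by Cep89 (r = 0.869). With Myh7 the value was 0.411. Myl3 correlated less with Myoz2 (r = 0.629) and Tnnt1 (r = 0.439), and at 0.641 with Csrp3, a stretch-linked protein. The closest genes to Myl3 in the table were 4930506C21Rik (r = 0.848), Slc25a33 (r = 0.807) and Cnksr3 (r = 0.796). Myl2 and Myl3 correlated at 0.636, and at 0.784 once group means were removed. Libraries of the same group share genotype, background and treatment, and the values describe the libraries only.

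**Figure D4:**
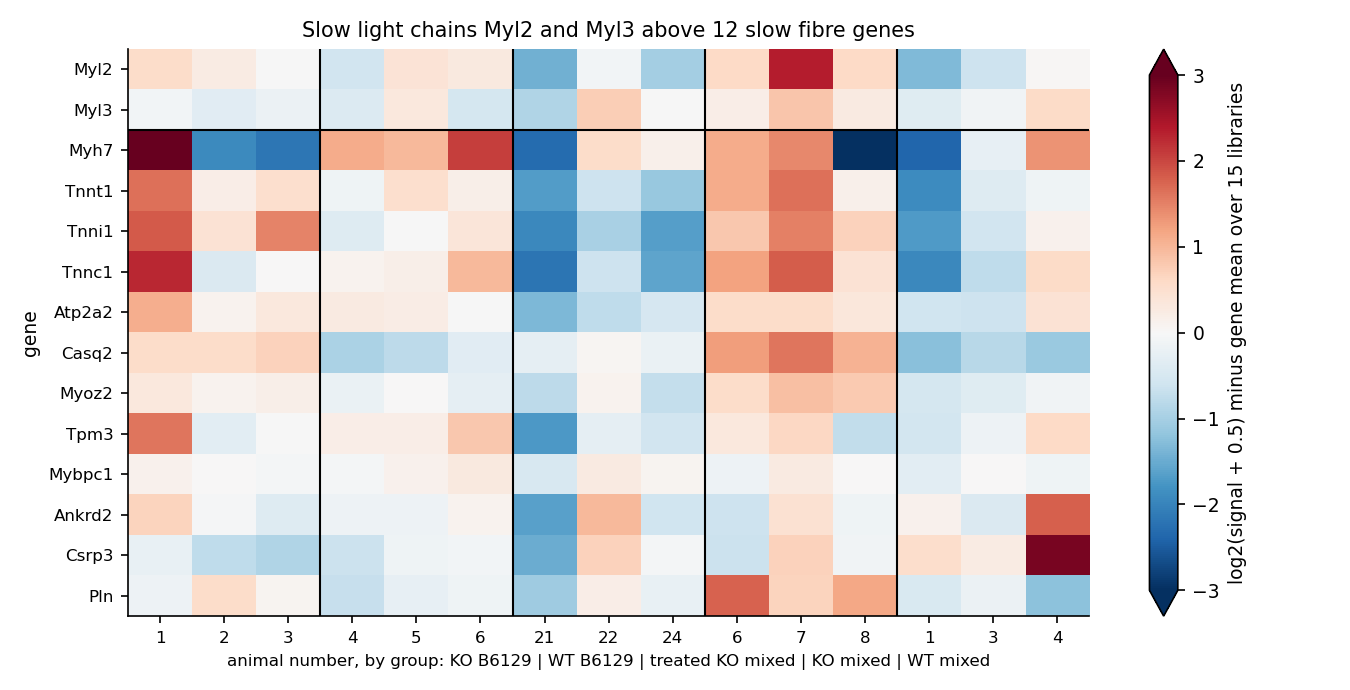
Log2(signal + 0.5) minus the mean of each gene over 15 libraries (colour, drawn up to 3 in either direction) for Myl2, Myl3 and 12 slow fibre genes (rows) in each animal (columns, grouped). KO mixed animal 7 holds the highest Myl2 value, a signal of 349, and Myh7 reaches 340.2 in KO B6;129 animal 1.

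Myl6b, the essential chain known from slow muscle and non-muscle cells, was a low transcript with 76 to 329 reads. It was at 10.97, 8.95 and 10.8 in KO B6;129 quadriceps, against 7.10, 7.23 and 4.95 in WT B6;129 quadriceps. The groups did not overlap and Myl6b rose by 0.65 ± 0.19 (adjusted p = 0.0156, limma). Without KO replicate 1, KO replicate 3 or WT replicate 6 the adjusted p was 0.053, 0.0559 and 0.0758. On the mixed background it was at 6.86, 6.59 and 5.67 in treated KO, 5.56, 5.98 and 8.54 in KO and 4.97, 6.84 and 4.95 in WT quadriceps. These overlapped, and KO against WT gave 0.23 ± 0.19 (adjusted p = 0.348). The KO effect differed between backgrounds by -0.41 ± 0.26 (adjusted p = 0.623), so a difference between the backgrounds is not shown. Scaling to library totals raised the mixed value to 0.49 (adjusted p = 0.0443). The genes most like Myl6b were Gm2260 (r = 0.893), Fam89b (r = 0.877) and Bloc1s3 (r = 0.861).

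Light chains of other myosins were measured for 5 genes. Of these, KO against WT B6;129 gave 1 higher and 1 lower, KO against WT mixed 1 higher and 1 lower, and treated KO against KO 2 higher and 2 lower. With library totals as the scale these were 3 higher, 2 higher and 2 lower, with 0 called the other way. Without KO B6;129 replicate 1 the first of these comparisons had 0 calls, and without KO mixed replicate 7 the mixed comparisons had 2 lower and 2 higher, with 0 the other way. Over all tested genes, 35.8%, 39.4% and 40.6% were called in the 3 comparisons with all libraries. Myl12a, a regulatory chain of non-muscle myosin, was at 285.7, 272.2 and 271.6 in KO B6;129, against 222.5, 245.2 and 197.5 in WT B6;129 quadriceps. Its log2 differences were 0.32 ± 0.11, 0.31 ± 0.11 and -0.30 ± 0.11 (adjusted p = 0.0369, 0.0419 and 0.046, limma). Without KO B6;129 replicate 1 all 3 calls were lost (adjusted p = 0.0982, 0.0516 and 0.0562). Both mixed calls were also lost without KO mixed replicate 7 (adjusted p = 0.156 and 0.173), and a median shift put the first comparison at 0.0547. Scaling to library totals gave larger differences, 0.61, 0.61 and -0.61 (adjusted p = 0.000307, 0.000322 and 0.00027, limma). Quantile normalization gave 0.46, 0.48 and -0.44 (adjusted p = 0.00374, 0.00282 and 0.00383, limma). Myl9, the regulatory chain of smooth muscle, was at 17.6, 19.2 and 20.96 in KO B6;129, against 27.5, 25.8 and 33.7 in WT B6;129 quadriceps, a log2 difference of -0.57 ± 0.17 (adjusted p = 0.0172). That call was lost without the same replicate 1 library (adjusted p = 0.0624) and with scaling to library totals (adjusted p = 0.158). In treated KO against KO mixed Myl9 rose by 0.64 with edgeR (adjusted p = 0.00845). Scaling to library totals gave 0.38 there (adjusted p = 0.0671, limma). KO against WT mixed was not called with edgeR, at -0.39 (adjusted p = 0.0851), but was without KO mixed replicate 7, at -0.54 (adjusted p = 0.0303, limma). Of 8 smooth muscle and pericyte genes, 3 were called lower and 1 higher in KO against WT B6;129. Their summed signal was 385.4 to 437.7 in KO B6;129 and 538.2 to 670.5 in WT B6;129. Their part in the Myl9 differences was not tested.

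**Figure D5:**
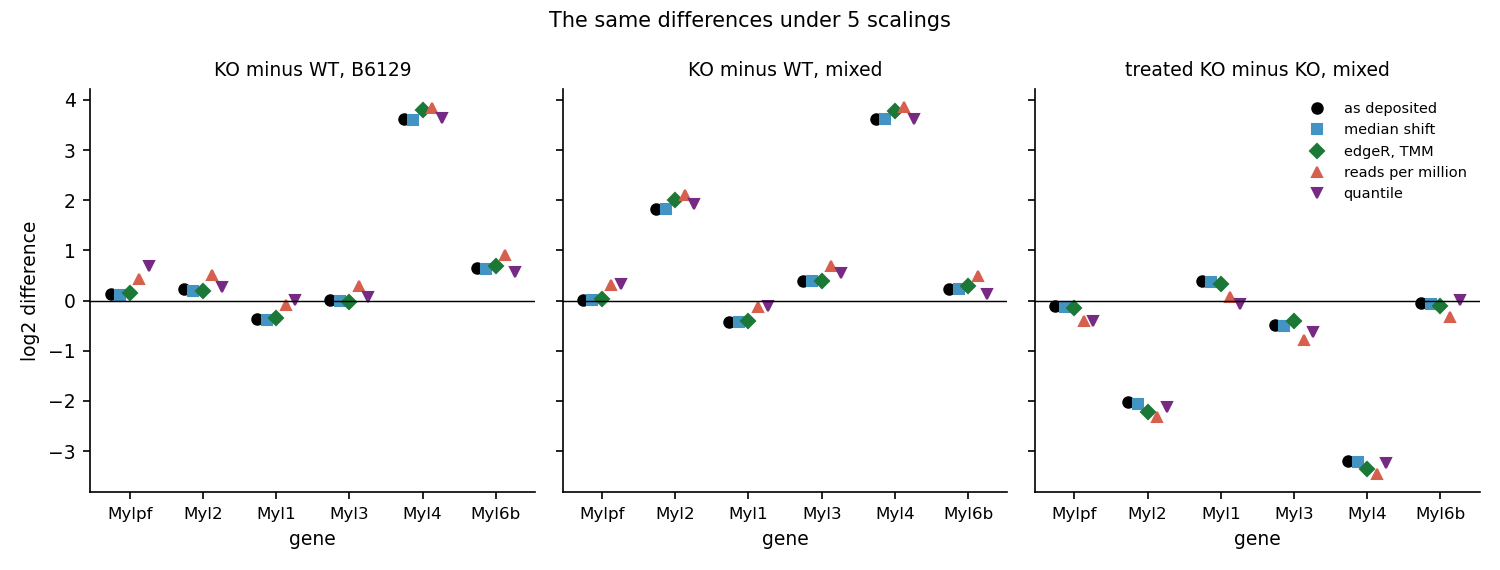
Log2 difference (y axis) of each light chain gene (x axis) in 3 comparisons under 5 scalings, shown as symbols. Myl4 and Myl2 keep their side of 0 in the mixed comparisons under all 5, whereas Myl1 in treated KO against KO runs between 0.39 as deposited and -0.06 after quantile normalization.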

How the data were processed

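PolyA RNA of snap-frozen quadriceps was read single-end at 61 bases, per the labels' protocols. Per the submitters' processing notes, cutadapt, RSEM, edgeR and limma were used on GRCm38, with versions and gene filter not given in the sources used here. The deposited values are a normalized signal. Taken as reads plus 0.5 over a size per library, 100% of values gave whole reads within 0.001. The treated cord descriptions name 1 column for 2 samples, which leaves the group the same.

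The filter kept the 14113 of 17420 genes that reached a signal of 1 in 3 or more quadriceps libraries. log2(signal + 0.5) was fitted with limma 3.58.1 (eBayes with trend, 5 groups, 15 libraries) in R 4.3.3. Fold changes on this scale understate low genes. edgeR 4.0.16 quasi-likelihood tests on the recovered reads called 5059, 5411 and 5516 genes in KO against WT B6;129, KO against WT mixed and treated KO against KO, beside 5046, 5562 and 5736 by limma. Alternatives were a pseudocount of 2, a filter at 4, no filter, quantile normalization, a median shift, the compared groups only, each library left out and, for lengths, the longest transcript. Scaling to library totals, and the gene lists, named list genes and shares under other scalings, lengths or without single libraries, were added after seeing the data. The fit was tested on simulated data. Errors after ± are standard errors for log2 differences and SDs for levels and shares. The members and gene lists were chosen with earlier results of these data known. All 6 members are named, with the called genes of smallest adjusted p in a list and comparison (at most 4) and the 3 genes of highest correlation with each member. Myh7, Tnnt1, Csrp3, Myh6, the cardiac markers under the filter and the ratio of Myl1 to Mylpf were chosen after their values were seen.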

Additional observations from a re-analysis of the deposited data

How the results depend on the processing

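The Myl4 and Myl2 calls kept their direction and their side of the threshold under each alternative run. In KO against WT B6;129 the number of members called was 1 to 3 with a library left out, where 2 were called with all libraries, and quantile normalization and scaling to library totals each gave 3. Quantile normalization turned the Myl1 difference to 0.0071 in KO against WT B6;129 and to -0.064 in treated KO against KO mixed. Values follow ranks in that setting. By group mean Myl1 ranked 22 in KO and WT B6;129, 24 in treated KO mixed and 22 in KO mixed. The setting therefore cannot decide the direction of Myl1. The Myl3 difference of treated KO against WT mixed, -0.09 with all libraries, ran between -0.49 and 0.34 with a library left out, the highest without treated replicate 21. No paired analysis was possible because the animals compared differ and share fewer than 2 replicate numbers. With 3 animals a group, the intervals of Myl2 and Myl3 stay wide. Gene totals do not separate the long and short forms of Myl1.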

Other observations

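Whole spinal cord of the same animals was read in 15 libraries, and its light chain levels are given as values only. Myl6b was the one member above its quadriceps level there, with a median signal of 22.5 in cord and 6.84 in quadriceps. How the signal was scaled between the tissues is not given in the sources used here. Myl6b was 13.1 to 13.7 in KO B6;129 and 11.7 to 14.6 in WT B6;129 cord. In mixed cord it was 21.6 to 25.5 in treated KO, 24.02 to 25.3 in KO and 24.5 to 27.2 in WT animals, and the background cannot be told apart from the letter in the column names. Mylpf and Myl1, the fast chains, ran from 2.92 to 119 and from 1.96 to 144 in cord, with the highest values in a WT mixed library and the next in a treated KO library. Acta1 ran from 8.54 to 362 and was highest in the same libraries, and Mylpf correlated with it at r = 0.987 over the 15 cord libraries, as a description. Myl2, Myl3 and Myl4 stayed at or below 3.65, 1.15 and 2.09 in cord.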
